A study of Homo sapiens with 10 samples.

Results

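The peaks described here lie around 8 genes that are studied as targets of ERG in prostate cancer or as genes of invasion: PLAU, PLAT, VIM, MMP9, EZH2, SOX9, MYC and ERG itself. A peak was taken when at least 1 bp of it lay in the gene or within 50 kb of it, or within 10 kb for MYC, on genome build hg19. Of 30301 peaks in 7 lists, 25 met this rule, 12 of them from the ERG antibody and 13 from the EWS antibody. The genes were chosen by name and not by a rule on their peaks, but with earlier results of these data known. The lists record binding and not expression, so whether these genes respond to ERG was not measured.

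ChIP-seq measures where a protein sits on DNA, by sequencing the fragments that an antibody to it pulls down. It was carried out in VCaP, a prostate cancer line that was given no treatment, and in RWPE1, an immortalised line from normal prostate, kept under puromycin and hygromycin selection. RWPE1 cells stably expressed wild-type ERG or ERG P436A, a point mutant, and the labels used here do not name the promoter that drove it. ERG was profiled in VCaP (1 list, 7712 peaks), in RWPE1 with wild-type ERG (2 replicate lists, 1901 and 1953 peaks) and in RWPE1 with ERG P436A (1 list, 1746 peaks), and EWS in VCaP (9500 peaks), with wild-type ERG (5703) and with ERG P436A (1786). The lists give positions only, so read depth is unknown and peak heights were not compared. Wild-type ERG alone had replicate lists, and no label states that they are of separate cultures. The order in which a list gives its peaks is printed as a place in the list and is not documented as a ranking.

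ERG is a transcription factor of the ETS family, whose members recognise a GGAA core in DNA. In many prostate cancers, VCaP among them, a gene fusion places ERG under the promoter of the androgen-responsive gene TMPRSS2, so that ERG is made in epithelial cells that normally lack it. EWS, the product of EWSR1, is an RNA-binding protein that acts with transcription factors as a co-activator. The series asked whether EWS is found at ERG sites and what becomes of this with ERG P436A.

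Peaks were found around 5 of the 8 genes, and 3 genes had none in any of the 7 lists. The window of MMP9 held 9 peaks, that of ERG 7, MYC 4, VIM 3 and EZH2 2, whereas those of PLAU, PLAT and SOX9 were empty. No peak covered the start of any of the 8 genes, and how often peaks of these lists cover gene starts was not measured. Of the 25 peaks, 8 lay in a gene body (5 in ERG, 2 in MYC and 1 in EZH2), 10 lay upstream and 7 downstream. The ERG gene alone filled 295 kb of the 1161 kb of all windows. Peaks were 432 to 1133 bp wide, with a median of 495 bp.

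**Figure D1:**
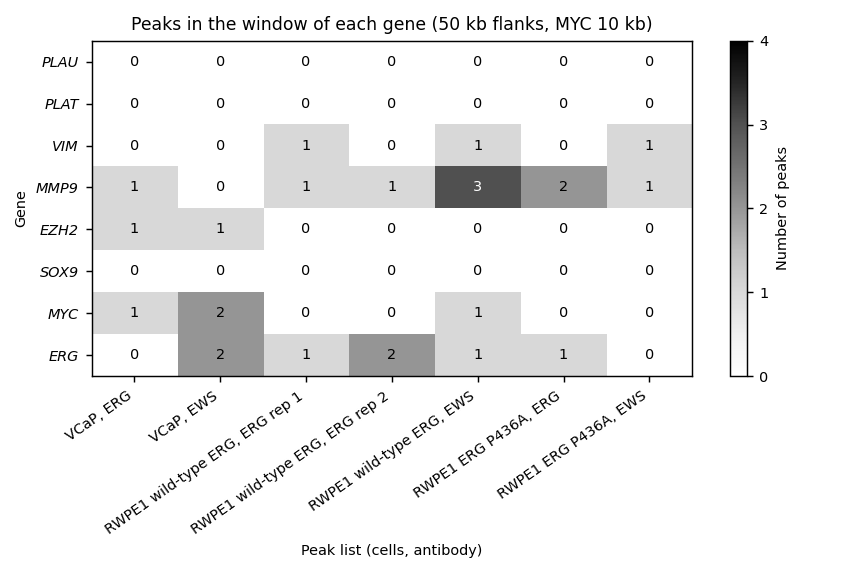
Number of peaks (numbers and grey scale) in the window of each gene (rows) in each of the 7 peak lists (columns, by cells and antibody). MMP9 has a peak in 6 lists and ERG in 5, and PLAU, PLAT and SOX9 have 0 in every list.

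ERG peaks lay in 3 of the 8 windows in each cell line. In VCaP, they were those of MMP9, EZH2 and MYC, and only that of MMP9 among the first 1746 peaks of the list, the length of the shortest list. To read this against the rest of the genome, the chromosomes were cut into consecutive tiles as wide as each window, and the share of tiles with a VCaP ERG peak ran from 5.02% at the width of the MYC window to 35.2% at that of the ERG window, with a mean of 17.6% over the 8 widths. In RWPE1 with wild-type ERG, 3 windows had a peak in at least 1 replicate, VIM, MMP9 and ERG, against 2.86% to 25.9% of tiles (mean 11.9%). Replicate 1 had a peak in all 3 of these and replicate 2 in MMP9 and ERG. ERG P436A had peaks in the same 2 windows as replicate 2, against 1.4% to 13.8% of tiles (mean 6.12%, or 6.77% for replicate 2). Counted by windows alone, the mutant thus differed from a wild-type replicate by no more windows than the replicates differed from each other. Positions were mixed among the RWPE1 ERG lists. At ERG only the peaks of the wild-type replicates overlapped, and at MMP9 only those of P436A and replicate 1. Tiles were not chosen to hold genes, and how windows around other genes compare with them was not measured.

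In full lists EWS lay in more windows with wild-type ERG than with the mutant, but not in lists cut to equal length. With wild-type ERG there were 6 EWS peaks in 4 windows (VIM, MMP9, MYC and ERG), where 4.19% to 35.1% of tiles had a peak (mean 16.6%). With ERG P436A there were 2 peaks in 2 windows (VIM and MMP9), where 1.47% to 16.2% of tiles did (mean 6.92%). Among the first 1746 peaks of each list both conditions had 2 windows, VIM and MYC with wild-type ERG and VIM and MMP9 with P436A. The order of the lists is not documented, so this cut may not keep comparable peaks. The peaks in the windows were 0.105% and 0.112% of the respective lists. In VCaP, 5 EWS peaks lay in the windows of EZH2, MYC and ERG, or 0.0526% of that list, against 5.11% to 28.6% of tiles (mean 15.6%). Each EWS condition had a single list, so these differences have no replicate check.

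Among all 25 peaks, 9 overlapped a peak of another list by at least 1 bp, against 14.5% of the 30301 peaks of the series. They fell into 4 sites: a site upstream of MMP9 with ERG in 3 lists, a site in MYC with ERG and EWS, a site in ERG with both wild-type ERG replicates, and a site in ERG with EWS in both cell lines. The other 16 peaks stood alone.

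**Figure D2:**
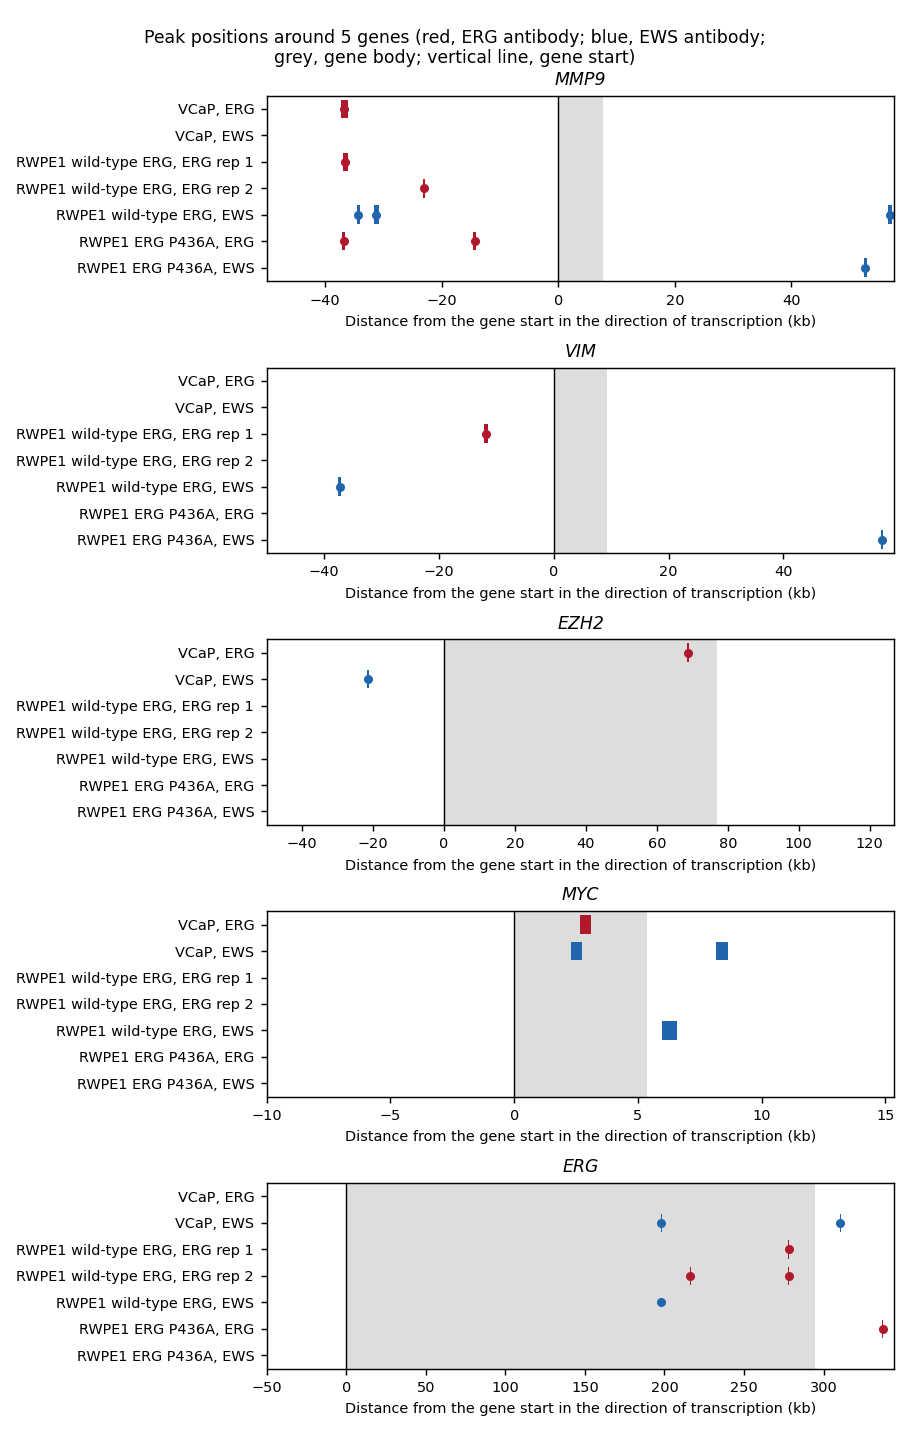
Position of every peak around the 5 genes that had any, as distance from the gene start in the direction of transcription (kb), with a row for each peak list; bars show the peaks to scale and dots mark their centres where bars are thin. No peak covers a gene start, and the ERG peaks of 3 lists line up about 37 kb upstream of MMP9.

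MMP9 encodes a secreted gelatinase that breaks down type IV collagen of basement membranes. Its gene (chromosome 20, 44637547 to 44645200) had a peak in 6 of 7 lists, all but EWS in VCaP. Only 0.156% of tiles of this width in the genome, and 3.08% of those on chromosome 20, held peaks of at least 6 lists, a limit taken from MMP9 itself after its values were seen. In RWPE1 the surroundings of MMP9 were rich in peaks: 8.03% to 16.3% of each RWPE1 list lay on chromosome 20, whereas VCaP ERG had 4.09% and VCaP EWS 1.08% of its peaks there. By tiles of the MMP9 width, VCaP ERG was crowded there too, with a peak in 36.3% on chromosome 20 against 15.3% in the genome. Within 500 kb of the MMP9 start there were 4 and 10 peaks of wild-type ERG, 9 of ERG P436A, 11 of EWS with wild-type ERG, 4 of EWS with P436A, 7 of VCaP ERG and 0 of VCaP EWS. The part of this crowding in the count at MMP9 was not tested.

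**Figure D3:**
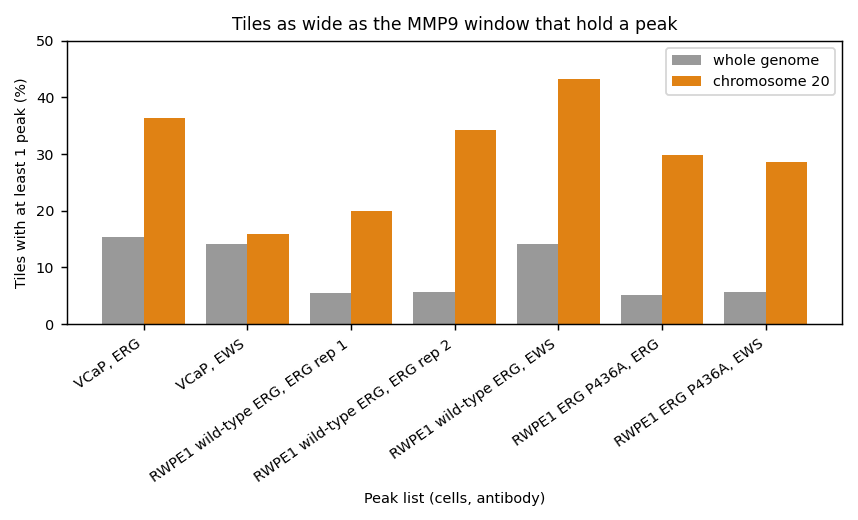
Share of consecutive tiles as wide as the MMP9 window (percent, vertical axis) that held at least 1 peak of each list, for the whole genome (grey) and for chromosome 20 (orange). In every list the share on chromosome 20 is above that of the genome, such as 15.9% against 14.1% for VCaP EWS, 34.2% against 5.6% for wild-type ERG replicate 2 and 43.3% against 14.1% for EWS with wild-type ERG.

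A single site upstream of MMP9 was occupied by ERG in both cell lines and by both forms of ERG. The VCaP ERG peak lay at 44600295 to 44601427, 36.7 kb before the gene start, and was number 232 of 7712 in its list. The peak of wild-type ERG replicate 1 (44600622 to 44601412) lay wholly inside it, as did that of ERG P436A (44600482 to 44600958). The 3 peaks had 337 bp in common, from 44600622 to 44600958. Across the lists, 0.467% of VCaP ERG peaks, 1.84% of replicate 1 peaks and 1.95% of ERG P436A peaks were shared by these same 3 lists. The next protein-coding gene upstream of MMP9 is ZNF335, a zinc finger gene, and where the peaks fall relative to it was not determined here. The site is described by MMP9 because the selection rule names that gene, and which gene it serves was not tested.

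Wild-type ERG replicate 2 had no peak at this site. Its only peak near MMP9 was at 44614278 to 44614767, 23.0 kb before the start, and overlapped no other list. ERG P436A had a further peak of its own 14.3 kb before the start, at 44622987 to 44623487, which was near the end of its list, number 1705 of 1746. The listed peaks of the wild-type ERG replicates near MMP9 thus did not overlap, and 1 peak of the mutant overlapped that of replicate 1. In the full lists, 6.05% of replicate 1 peaks had a replicate 2 peak.

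EWS lay beside the MMP9 site in cells with wild-type ERG but did not overlap it. The nearer EWS peak, 44603004 to 44603502, was 1591 bp away from the replicate 1 ERG peak, and the other, 44605951 to 44606763, 4538 bp away. An EWS peak within 5 kb was found for 18.9% of all replicate 1 peaks, a distance chosen after these were seen. In cells with ERG P436A, and in VCaP, no EWS peak lay upstream of MMP9 within the window. The 2 upstream EWS peaks with wild-type ERG were numbers 5116 and 3306 of 5703, and the EWS list with P436A has only 1786 peaks. In the full lists, an EWS peak of the same cells lay within 5 kb of 7.01% of replicate 2 peaks of wild-type ERG. The share was 5.56% for ERG P436A peaks and 30.6% for VCaP ERG peaks. Downstream, in the direction of SLC12A5 and NCOA5, EWS had a peak with wild-type ERG at 44694098 to 44694794 and another with P436A at 44689989 to 44690480, which were 3617 bp apart.

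**Figure D4:**
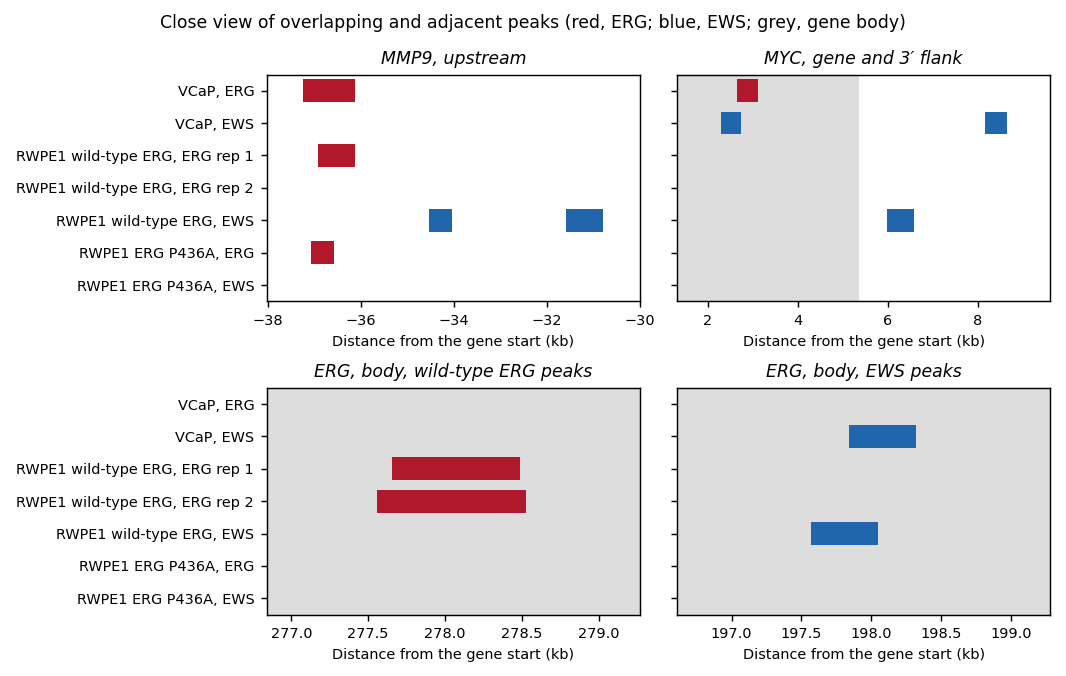
Close views of the sites where peaks of different lists meet, as distance from the gene start (kb), with a row for each list and peaks drawn to scale. The 3 ERG peaks upstream of MMP9 overlap while the EWS peaks stand 1591 bp and 4538 bp off the replicate 1 peak, and in MYC the ERG and EWS peaks of VCaP overlap at their edges.

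MYC, a transcription factor that drives cell growth, was the only gene of the 8 where an ERG peak and an EWS peak overlapped. In VCaP the ERG peak lay in the gene body (chromosome 8, 128750955 to 128751437), 2.88 kb past the gene start, and the EWS peak beside it at 128750601 to 128751058. They had 104 bp in common, 21.5% of the ERG peak and 22.7% of the EWS peak, and their centres were 366.5 bp apart. The ERG peak came late in its list, as number 6775 of 7712. Across the genome 11.3% of VCaP ERG peaks had an EWS peak and 10.3% of VCaP EWS peaks had an ERG peak. The VCaP EWS list was crowded on chromosome 8, where 18.2% of tiles as wide as the MYC window had a peak of it, against 5.11% in the genome, and the part of this in the overlap was not tested.

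Further EWS peaks lay just past the end of MYC. In VCaP the peak was centred 3.04 kb past the gene end, and in RWPE1 with wild-type ERG 0.915 kb past it, with 1576 bp between them. The RWPE1 peak came early in its list, as number 1360 of 5703. No RWPE1 ERG list, wild-type or P436A, had a peak within 10 kb of MYC. Few tiles as wide as the MYC window had one: 2.86% for wild-type ERG in either replicate and 1.4% for ERG P436A. A peak in at least 3 lists was held by 0.636% of tiles of this width in the genome and by 1.11% of those on chromosome 8. This limit was taken from MYC itself after its values were seen.

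At the ERG gene (chromosome 21, 39739183 to 40033704, on the reverse strand) peaks came from 5 lists, VCaP ERG and EWS with P436A being without. The window is the widest of the 8, at 395 kb, and 5.83% of tiles of that width had at least 5 lists. That limit was taken from ERG itself after its values were seen. Both wild-type ERG replicates had a peak at the same place in the gene body, 39755215 to 39756043 in replicate 1 and 39755182 to 39756152 in replicate 2. The first lay wholly inside the second, and their centres were 38 bp apart. They were placed 16.4 kb and 16.5 kb before the 3′ end of the gene.

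These peaks came early in both lists, as number 107 of 1901 and number 13 of 1953. Replicate 2 had a second peak in the gene body at 39817251 to 39817887, number 35 of its list, which replicate 1 lacked. Of the replicate 1 peaks 6.05% had a replicate 2 peak. Peaks shared by the replicates and by no other list made up 2.05% of each. A wild-type ERG peak in both replicates was held by 5.58% of tiles as wide as this window. These RWPE1 cells stably expressed an introduced ERG besides carrying their own gene, and both replicates had the peak. The part of the introduced ERG in these peaks was not tested, and whether they lie on exons was not determined here.

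ERG P436A had no peak in the ERG gene body. Its peak in the window was at 39696189 to 39696677, 42.8 kb past the 3′ end. VCaP ERG, in a line with the TMPRSS2 fusion, had no peak in the window, and its nearest was 144 kb upstream of the gene start. EWS lay elsewhere in the gene: a peak in VCaP at 39835385 to 39835860 and a peak in RWPE1 with wild-type ERG at 39835655 to 39836134 had 206 bp in common. Both were listed late, as number 7253 of 9500 and number 4701 of 5703. Few EWS peaks recur between these lists, 1.23% of those with wild-type ERG and 0.747% of those in VCaP. On chromosome 21, however, 60.3% of tiles as wide as the ERG window had a VCaP EWS peak, against 28.6% in the genome. For EWS with wild-type ERG it was 26.4% against 35.1%. The part of the VCaP crowding in the overlap was not tested. VCaP EWS had another peak 15.9 kb past the gene end.

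VIM encodes vimentin, the intermediate filament of mesenchymal cells and a marker of epithelial cells that have become motile. Its window (gene at chromosome 10, 17270258 to 17279592) held peaks of RWPE1 lists only, and none overlapped another. The ERG peak of replicate 1 was at 17258029 to 17258743, 11.9 kb before the gene start and the closest ERG peak to the start of any of the genes other than MYC. Replicate 2 had no peak within 4807 kb of the start, ERG P436A none within 3641 kb and VCaP ERG none within 482 kb. On all of chromosome 10 these lists held only 40, 80 and 105 peaks, in that order. An EWS peak lay 37.3 kb before the start with wild-type ERG, and another 47.8 kb past the gene end with ERG P436A. Peaks of at least 3 lists, a limit taken from VIM itself, were held by 5.72% of tiles of this width, or 1.94% of those on chromosome 10.

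EZH2 is the catalytic subunit of Polycomb repressive complex PRC2, which methylates histone H3. Its gene (chromosome 7, 148504464 to 148581441, reverse strand) had peaks in VCaP only. An ERG peak lay in the gene body at 148512497 to 148512993, 8.28 kb before the 3′ end, and an EWS peak 21.4 kb before the gene start at 148602568 to 148603062, in the direction of PDIA4. Peaks of at least 2 lists, a limit taken from EZH2 itself, were held by 24.8% of tiles of this width. Peaks of 2 lists in such a window are thus common. The nearest peak of any RWPE1 list was 734 kb from the start, in replicate 2 of wild-type ERG.

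The plasminogen activators PLAU (urokinase) and PLAT (tissue type), secreted proteases that turn plasminogen into plasmin, had no ERG or EWS peak in their windows. At the widths of these windows 41.1% and 45.8% of tiles had a peak of any list, or 32.2% of those on chromosome 10 and 62.5% of those on chromosome 8. For PLAU (chromosome 10, 75668935 to 75677255) the nearest ERG peak was that of VCaP, 149 kb downstream at 75817549 to 75818431, on the side of VCL. The nearest of any list was an EWS peak with wild-type ERG, 90.6 kb upstream on the side of CAMK2G. In RWPE1 the nearest wild-type ERG peaks were 1660 kb (replicate 1) and 1191 kb (replicate 2) from the PLAU start, and that of ERG P436A 745 kb.

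PLAT (chromosome 8, 42032236 to 42065194, reverse strand) had a VCaP ERG peak 63.7 kb upstream of its start, at 42128488 to 42129232, on the side of IKBKB. This is just outside the window. The nearest peak of any RWPE1 list was 5918 kb away, from ERG P436A. SOX9, a transcription factor of prostate development, at chromosome 17, 70117161 to 70122561, had an empty window too (40.3% of tiles of that width had a peak, or 52.5% on chromosome 17). Its nearest peak was EWS with wild-type ERG, 185 kb downstream, and the nearest ERG peaks were those of P436A (471 kb) and of wild-type replicate 1 (488 kb), with VCaP ERG at 1184 kb.

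**Figure D5:**
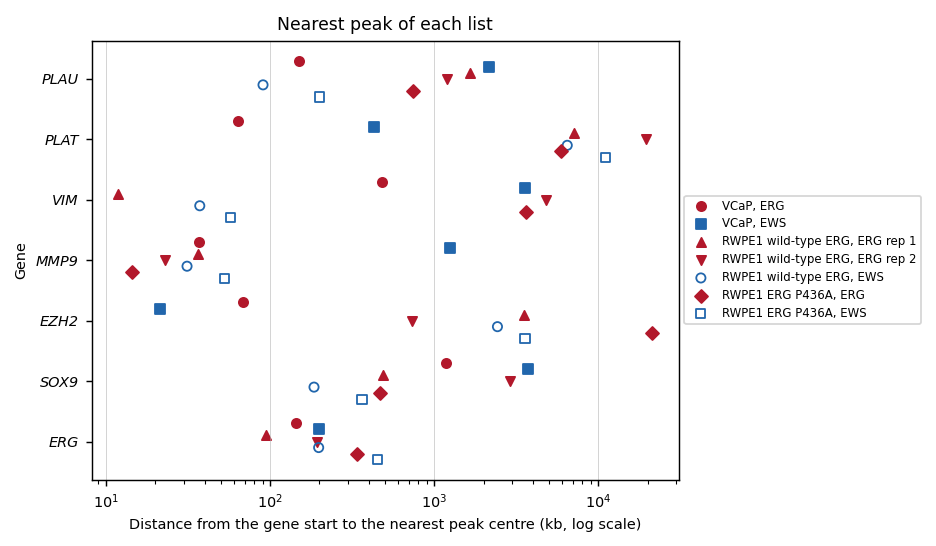
Distance from the start of each gene to the centre of the nearest peak of each list (kb, log axis; red, ERG antibody; blue, EWS antibody), MYC being left out as its window is limited to 10 kb. MMP9 has 6 of 7 lists within 60 kb, while for PLAT the nearest peak of any RWPE1 list is 5918 kb away.

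EWS was asked for at the ERG peaks of the same cells. In VCaP, 1 of 3 ERG peaks in the windows overlapped an EWS peak (33.3%; exact 95% interval 0.840% to 90.6%). In RWPE1 with wild-type ERG 0 of 3 did in replicate 1, where 9.26% of the list did, and 0 of 3 in replicate 2 (3.23% of the list). With ERG P436A it was 0 of 3 (2.18% of the list). The shares of the lists were taken against 5703 EWS peaks with wild-type ERG and 1786 with P436A. No peak of the P436A lists was wider than 501 bp, whereas the wild-type lists held wider peaks. These shares are thus not like for like. Each 0 of 3 allows a share of up to 70.8% by the exact interval, which covers counting error only, so no difference between the forms of ERG was detectable at these genes. EWS peaks of wild-type and P436A cells overlapped at 0 of the 6 peaks in the windows, against 1.4% of the wild-type list.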

How the data were processed

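ChIP-seq peak lists of 7 samples were used. The 3 input samples have no list and were not analysed here. The lists as deposited give a chromosome and the first and last base of each peak, so the authors' values are positions in base pairs, with no height, score or p-value. Reads were aligned with Bowtie2, its version given as 0.12.8, to hg19, both per the submitters' processing notes. How peaks were called is not given in the sources used here. Widths differ between lists, so lists may have been called with unlike settings. Depth is unknown.

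Groups came from the sample titles. Starts were read as 0-based and are printed 1-based. Gene positions are those of the selection rule. Strand came from the RefSeq promoter table for 4 genes and from general knowledge for 4. Distances run from the gene start to the peak centre. How usual such distances are for other genes in the same lists was not measured. Neighbouring genes were named from the RefSeq table of assembly GRCh38.p14, with no conversion of positions, so exons, other genes and sequences at the peaks were not placed, nor was a planned list of other invasion and ETS genes. All peaks in the windows are described. Members, windows and comparisons were chosen with earlier results of these data known. With 1 list in most groups no test was made. Counts stand beside the share of consecutive tiles (chromosomes 1 to 22 and X, up to the last peak) or of all peaks that meet the same rule. The overlap search was tested on simulated data. Alternatives were windows of 10 and 100 kb, peak centres, peaks over 2000 bp removed, other overlap rules, each replicate left out and, added after the data were seen, lists of equal length and all alternatives for the EWS windows in RWPE1. Python 3.11.15, NumPy 2.4.6, SciPy 1.17.1 and matplotlib 3.10.9 were used.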

Additional observations from a re-analysis of the deposited data

How the results depend on the processing

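With 10 kb around every gene, 10 of the 25 peaks remained, all at EZH2, MYC and ERG, and windows with a wild-type ERG peak in RWPE1 fell from 3 to 1, that of ERG. Windows with EWS in RWPE1 then fell from 4 to 2 with wild-type ERG and from 2 to 0 with ERG P436A. With each list cut to its first 1746 peaks, 14 peaks remained and VCaP ERG had 1 window in place of 3, that of MMP9, so the peaks of VCaP ERG in EZH2 and MYC depend on the later part of a list whose order is not documented. Windows with EWS and wild-type ERG went from 4 to 2 with this cut, and those with P436A stayed at 2. With a reciprocal overlap of 0.5, 0 ERG peaks of the windows had an EWS peak in VCaP, in place of 1. The other 24 of 32 recomputed counts moved by no more than 1.5 times. Without each wild-type replicate the peaks in the windows were 22 in both cases, and windows with wild-type ERG were 2 to 3, VIM being lost without replicate 1. With 100 kb flanks there were 32 peaks, and the VCaP ERG peak by PLAT joined. No paired analysis was possible because only 1 group with peak lists has replicates. Read depth is unknown, so a missing peak does not show missing binding.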
